A study of Mus musculus with 7 samples.

Results

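The collagen chain genes are the genes whose platform symbol has the form Col, a number, a, a number. Of 45037 probe sets that are not controls, 82 carried 1 such symbol, and they stood for 42 genes out of 18193 genes with a probe set of their own. The series compares D3 mouse embryonic stem cells, an established line, in the wild type form (2 libraries) and as a knockout of calreticulin (CRT in the sample titles), the product of Calr, which binds calcium and helps glycoproteins fold in the endoplasmic reticulum (5 libraries). Each library was a pool of replicate cultures on its own Affymetrix Mouse 430 2.0 array, and counts as its own biological replicate in the design. The number of knockout clones and the use of feeder cells are not stated, so p-values measure only the spread between these libraries. Signals are MAS5 intensities on a linear scale, with every array already scaled to a common level. Differences are knockout minus wild type on the scale log2(signal + 20.2), a scale that compresses the change of dim probe sets, and a call means an adjusted p under 0.05 in a fit across all 27022 probe sets that passed a filter on low signal.

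Collagens are secreted or membrane proteins whose chains wind around each other into a rope-like helix rich in glycine and proline. The chains are hydroxylated and glycosylated in the endoplasmic reticulum, fold there with a dedicated chaperone, and are trimmed and cross-linked outside the cell. Fibrillar collagens such as types I, III and V carry tensile load in connective tissue, and type IV collagen forms the sheet-like network of basement membranes, which are among the first matrices that the early embryo lays down.

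The targeted gene, Calr, came first. With the brightest of its probe sets, the signal averaged 11649.8 ± 1146 (SD, n = 2) across wild type libraries and 912 ± 205 (SD, n = 5) across knockout libraries, a difference of -3.68 (SE 0.30, limma adjusted p = 0.00595; -3.84 and adjusted p = 0.00574 without knockout libraries 2 and 3). With wild type library 1 or 2 left out, Calr was no longer called (limma adjusted p = 0.254 and 0.129). Knockout libraries 2 and 3 stood apart. They correlated with each other at r = 0.985 across the tested probe sets and with the other 5 libraries at 0.843 to 0.902, and a Lys probe set for added bacterial poly-A RNA had a 3' signal of 10441 and 13605 in them against 4063 to 5314 elsewhere. The main collagen results are therefore given with and without these 2 libraries. All 10 listed markers of pluripotent stem cells passed the filter, and their summed signal was 83531 and 98323 in wild type and 80381 to 112543 in knockout libraries. Their median relative to wild type was -0.21 and -0.15 in knockout libraries 2 and 3, and 0.04 to 0.35 in the other knockout libraries. Pou5f1 had 4891 and 4687 in libraries 2 and 3 against 8770 to 11726 elsewhere. Nanog, Esrrb and Utf1 were also lowest in both, as were 20.9% of all tested probe sets, while Tdgf1 and Fgf4 were highest.

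None of the collagen genes was called. The filter kept 36 of the 82 collagen probe sets, for 28 of the 42 genes, and 0 of the 36 were called, where 0.0296% of all tested probe sets were (8 of 27022; 0 without wild type library 1 or 2, 4 without knockout library 1, and 5 without knockout library 4 or 5). At an unadjusted limma p under 0.05 the count was also 0 of 36, against 8.42% of all tested probe sets, and the lowest adjusted p was 0.575. The wild type and knockout signals overlapped at all 36. Over all tested probe sets, 7.8% were higher in every knockout library than in both wild type libraries and 5.85% were lower. The median collagen difference was 0.04, beside 0.07 over all tested probe sets. The median SE of a collagen difference was 0.43, and the 2 wild type libraries limit the precision of every difference.

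The knockout libraries themselves were divided. At 20 of the 36 collagen probe sets, knockout libraries 2 and 3 both exceeded the other 5 libraries, against 26.9% of all tested probe sets, and at 0 of 36 were both of them the lowest, against 20.9%. The count was 18 with quantile normalization (22% of all), 16 with centring on array medians (20.2% of all), and 28 of 82 when the dim probe sets were kept (21.1% of all). Library by library, the collagen median relative to the wild type mean was 0.52 and 0.67 in knockout libraries 2 and 3, whereas libraries 1, 4 and 5 had -0.20, -0.06 and -0.15. The wild type libraries stood at 0.12 and -0.12, and the median over all tested probe sets lay between -0.05 and 0.14 in every library.

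**Figure D1:**
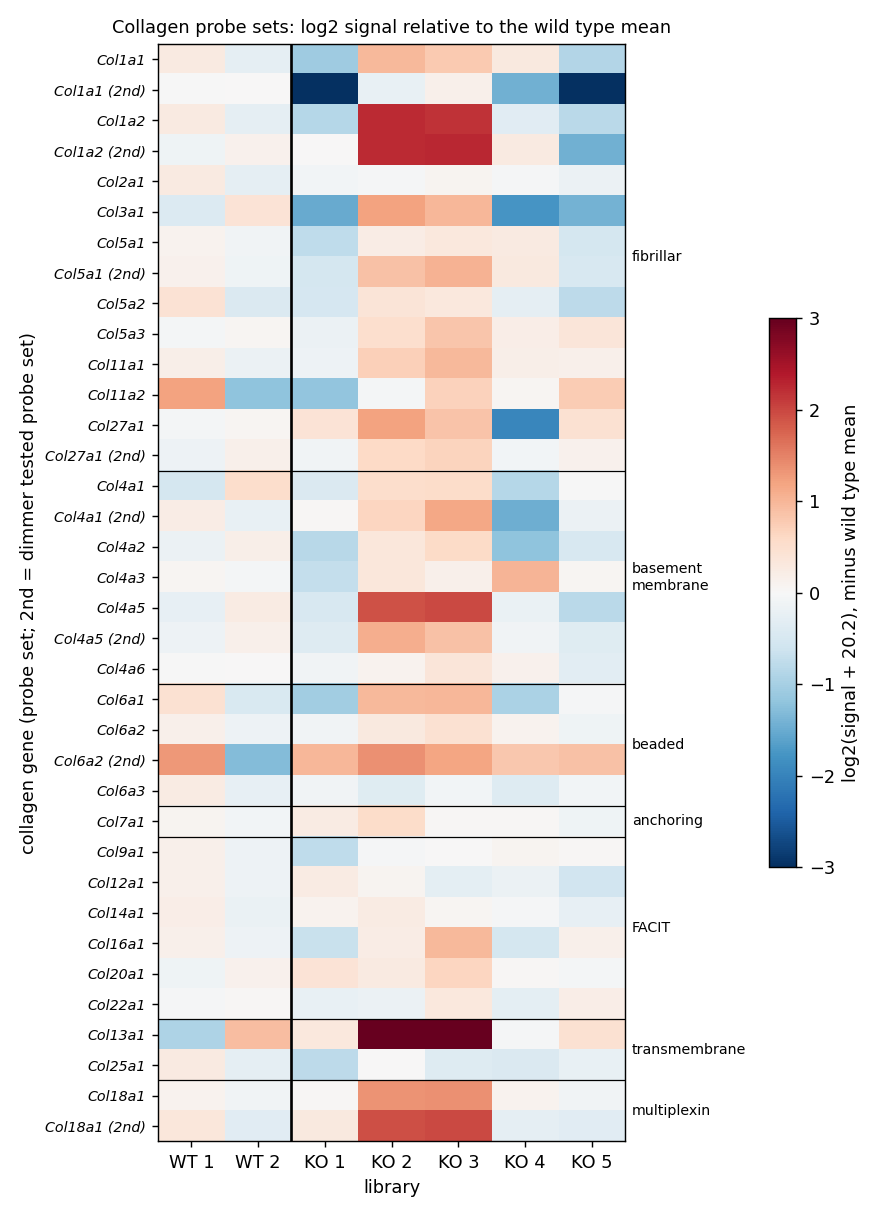
The 36 tested collagen probe sets run down the plot, grouped by class, and the 7 libraries across it; colour gives log2(signal + 20.2) minus the wild type mean, with the scale ending at -3 and 3. Knockout libraries 2 and 3 are red at most fibrillar and type IV probe sets, at Col18a1 and at Col13a1, whose values there lie beyond the scale, while knockout libraries 1, 4 and 5 are pale or blue at most probe sets.

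Without knockout libraries 2 and 3 the collagen signals leaned the other way. Of the 36 probe sets, 28 had a difference below 0 there, beside 46.3% of all tested probe sets, and the median was -0.21 against 0.03. The count was 29 of 36 with quantile normalization (50.8% of all) and 30 of 36 with centring (51.5% of all). At 4 of 36 (Col1a2, Col3a1, Col4a2 and the second probe set of Col1a1) each of the 3 remaining knockout libraries was under both wild type values, which is near the 8.89% of all tested probe sets, and at 0 of 36 did all 3 lie above, against 11.4%. In this comparison 0 of 36 were called (0.0185% of all; lowest limma adjusted p = 0.608), and 3 were lower at an unadjusted p under 0.05 (2.05% of all), namely Col3a1, Col4a2 and the second probe set of Col1a1. With knockout libraries 2 and 3 kept but given a term of their own, 0 of 36 were called as well (0.037% of all; lowest adjusted p = 0.230, for Col3a1).

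**Figure D2:**
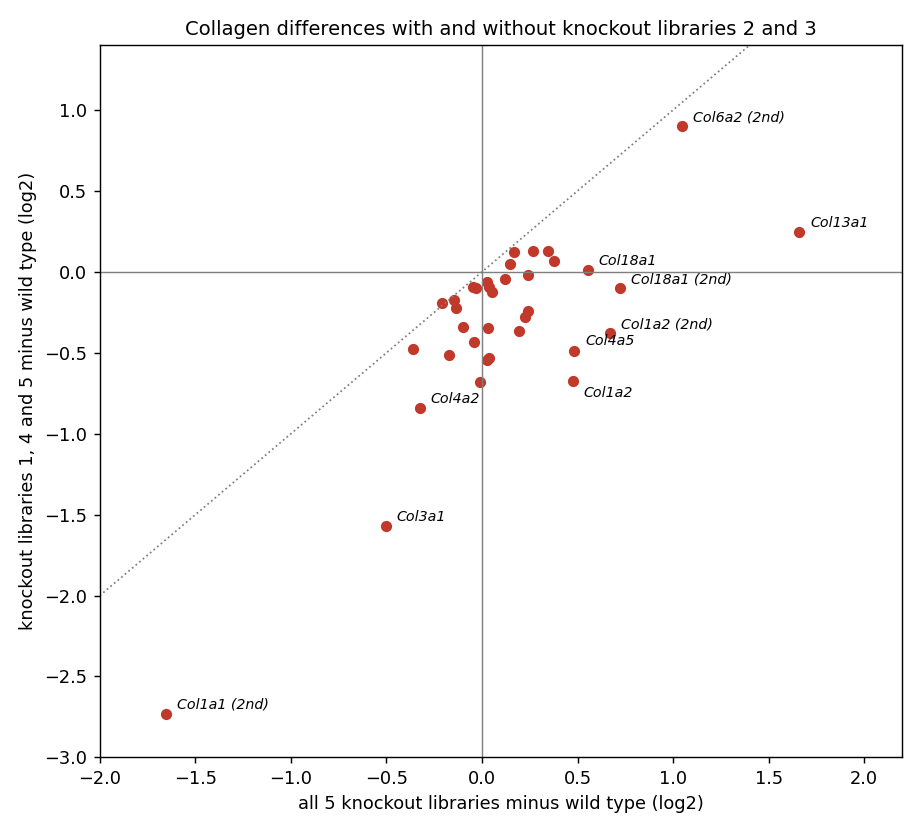
Each point is a tested collagen probe set; the x axis is the difference of all 5 knockout libraries from wild type and the y axis the same without knockout libraries 2 and 3, both on the log2 scale, and the dotted line marks equal values. Most points lie below the dotted line, and Col1a2 and Col4a5 are above 0 on the x axis and below 0 on the y axis.

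Type I collagen, the main fibre of skin, bone and tendon, is built from the chains of Col1a1 and Col1a2. Col1a2 had signals of 375 and 250.5 in wild type libraries 1 and 2, and of 159, 1519, 1443, 237 and 166 in knockout libraries 1 to 5. The pair of high libraries was thus 4.86 and 4.61 times the wild type mean, and the other 3 were below both wild type libraries. The difference was 0.47 (SE 0.90, limma adjusted p = 0.847), and -0.67 without knockout libraries 2 and 3 (adjusted p = 0.820). Its second probe set repeated the pattern in the 2 high libraries, with 388 and 391 against 58.3 and 74.6 in wild type libraries, but knockout libraries 1 and 4 (67.3 and 83.7) were within or above the wild type values there and only library 5 was lower (11.8).

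The start of Col1a2 is shown because knockout libraries 2 and 3 stood furthest above the wild type mean here among the tested fibrillar genes. The 250 bases before the RefSeq start (chr6:4505368-4505617, plus strand, GRCm38.p6) are given 5' to 3', with GC boxes (GGGCGG, the letters bound by Sp1-type factors) and CCAAT boxes (CCAAT), searched on both strands, in capitals.
Col1a2: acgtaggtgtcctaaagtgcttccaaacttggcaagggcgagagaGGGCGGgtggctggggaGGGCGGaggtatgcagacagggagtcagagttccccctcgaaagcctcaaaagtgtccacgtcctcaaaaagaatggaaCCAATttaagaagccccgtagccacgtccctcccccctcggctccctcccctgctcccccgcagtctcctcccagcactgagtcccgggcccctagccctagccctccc
The stretch holds 2 GC boxes and 1 CCAAT box. RefSeq windows of 300 bases around the start were found for 33 of the 42 collagen genes (36 windows); 61.1% of these held a GC box, 36.1% a CCAAT box and 13.9% a TATA box (TATAAA), against 35.7%, 37.4% and 13.6% of 32851 windows of all genes. The spaced pair of CCAAT and CCACG, 9 bases apart, that marks ER stress elements was in 0 of 36 collagen windows and in 0.119% of all windows. A match of letters is a description of the window and no measure of binding.

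Col1a1 gave different readings with its 2 tested probe sets. The brighter one had 209.8 and 137 in wild type libraries and 71.1, 355, 305, 215 and 83.4 in knockout libraries 1 to 5, so that library 4 was above both wild type libraries. The second one had 324 and 332 in wild type libraries, close to the 280.0 and 366 of knockout libraries 2 and 3, and only 10.8, 107 and 16.2 in knockout libraries 1, 4 and 5. That made the lowest difference among collagen probe sets, -1.65 (SE 0.94, limma adjusted p = 0.579), and -2.73 without knockout libraries 2 and 3 (SE 0.57, adjusted p = 0.608). Libraries 1 and 5 were low with either probe set.

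Col3a1 encodes the type III chain, which forms fibres with type I collagen in distensible tissues. Signals were 155 and 287 in wild type libraries, 512 and 443 in the high pair, knockout libraries 2 and 3, against 60.9, 47.3 and 66.6 in knockout libraries 1, 4 and 5. The 3 groups of libraries did not overlap. Over all 5 knockout libraries the difference was -0.50 (SE 0.84, limma adjusted p = 0.825), and without libraries 2 and 3 it was -1.57 (SE 0.34, adjusted p = 0.641), with a mean signal of 58.3 ± 9.92 (SD, n = 3), 26.4% of the wild type mean. The dimmer Col3a1 probe set was under the filter, with 47.8 and 38.2 in wild type libraries and 81.1 and 50.2 in knockout libraries 2 and 3. Knockout libraries 1, 4 and 5 had 28.1, 29.3 and 48.9 there, so library 5 was above both wild type libraries.

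**Figure D3:**
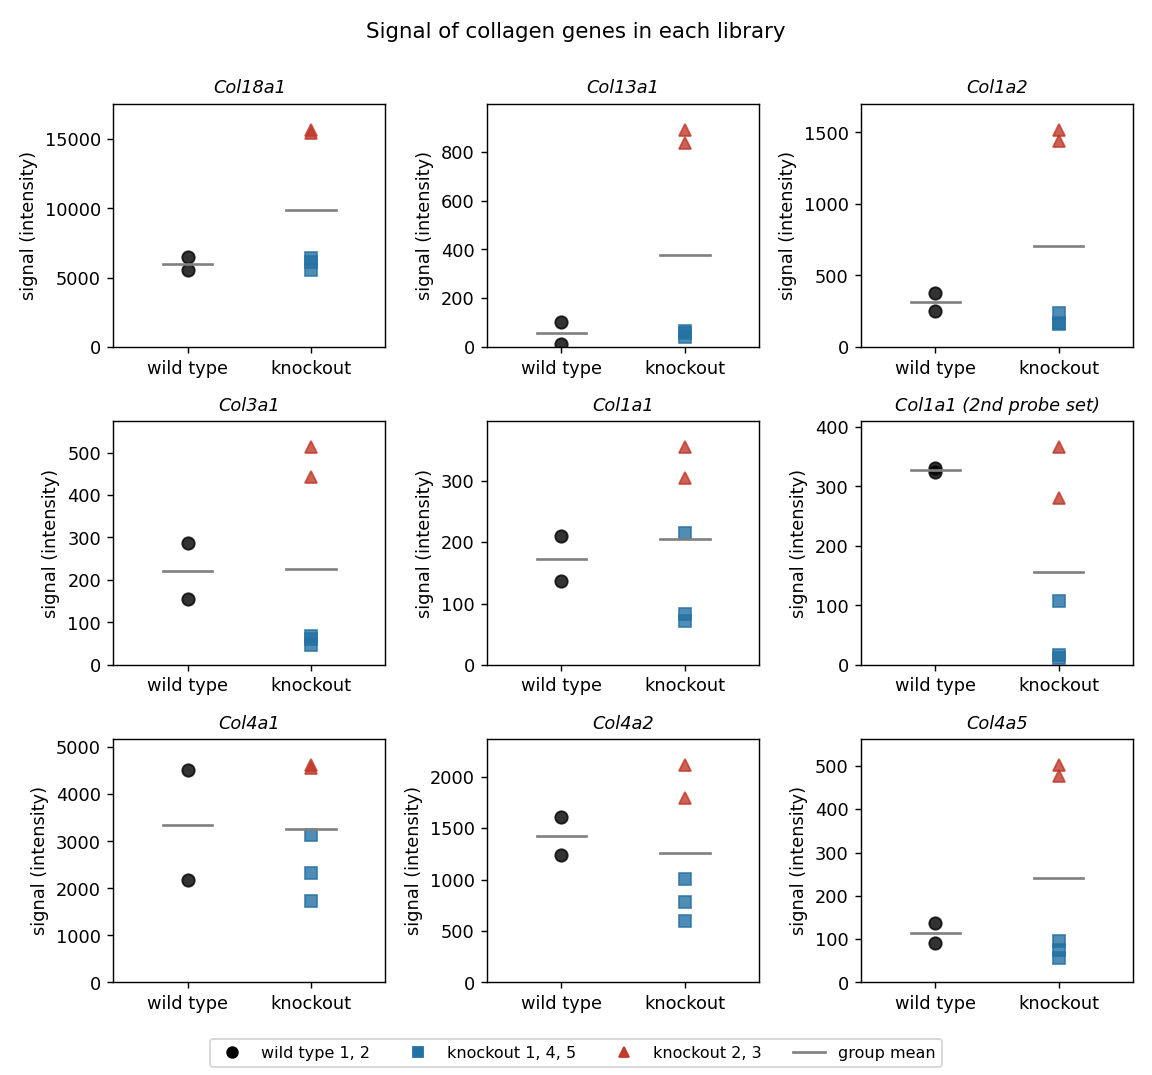
Signal (intensity, linear axis from 0) of 9 collagen probe sets in each library, with a grey line at the group mean. Triangles (knockout libraries 2 and 3) are the highest points in every panel except the second probe set of Col1a1, where wild type libraries lie between them; squares (knockout libraries 1, 4 and 5) are below both wild type circles for Col1a2, Col3a1, Col4a2 and the second probe set of Col1a1.

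Type V chains are minor partners that set the diameter of type I fibres. Col5a1 had 565 and 484 in wild type libraries, 613 and 656 in knockout libraries 2 and 3, 634.5 in knockout library 4, and 299.6 and 356 in knockout libraries 1 and 5 (difference -0.10, SE 0.36, limma adjusted p = 0.927). Its second probe set separated libraries 2 and 3 more clearly, at 688 and 769 against 246 to 449 in the other 5. Col5a2 had 359.7 and 189 in wild type libraries and 143 to 348 in knockout libraries (-0.17, SE 0.39, adjusted p = 0.876). The dimmer Col5a2 probe set, under the filter, had 15.9 and 37.4 in wild type libraries. There libraries 2 and 3 had 17.7 and 13.4, below the 66.1, 73.4 and 40.4 of knockout libraries 1, 4 and 5. Col5a3 stood at 185 and 201 in wild type and at 169 to 360.0 in knockout libraries, with libraries 2 and 3 highest (0.35, SE 0.30, adjusted p = 0.670).

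The other fibrillar genes did not share 1 pattern. Col2a1, the chain of the main cartilage collagen, had 341 and 230.5 in wild type libraries and 248 to 300.3 in knockout libraries (-0.05, SE 0.25, limma adjusted p = 0.952), the whole knockout group lying between the 2 wild type libraries. Col11a1, a partner of type II collagen, was at 105 and 78.9 in wild type libraries and at 163 and 200 in knockout libraries 2 and 3, with 79.8 to 106 in the other 3 (0.38, SE 0.34, adjusted p = 0.683). The dimmer Col11a1 probe set, under the filter, had 29.2 and 40.5 in wild type libraries. There libraries 2 and 3 had 94 and 102.6, and knockout libraries 1, 4 and 5 had 50.3, 68.6 and 51.3. Col27a1 had 274 and 294.5 in wild type libraries, 686 and 531 in knockout libraries 2 and 3, 382 and 394 in libraries 1 and 5, and only 58.4 in library 4 (0.19, SE 0.71, adjusted p = 0.927). The low value of library 4 did not recur with the second Col27a1 probe set, where it was 141 against 133 and 170.0 in wild type libraries. Col11a2 differed more between the wild type libraries (177 and 16.9) than among the knockout libraries (17.4 to 124).

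Type IV collagen is the basement membrane network, and its common trimer holds chains from Col4a1 and Col4a2. Col4a1 had 2188 and 4520.4 in wild type libraries and 2322, 4552, 4620, 1725 and 3135 in knockout libraries 1 to 5. Libraries 2 and 3 barely exceeded wild type library 2, and wild type library 1 lay below knockout libraries 1 and 5. The difference was -0.04 (SE 0.44, limma adjusted p = 0.974), and -0.43 without libraries 2 and 3 (adjusted p = 0.845). With its second probe set the signals were 939 and 689.5 in wild type libraries, 1274 and 1809.9 in the high pair, against 819, 279 and 714 in knockout libraries 1, 4 and 5.

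Col4a2, like Col4a1, had its lowest signal in knockout library 4 and its highest in library 3. It had 1241 and 1610.2 in wild type libraries, 1797 and 2114 in the high pair, against 782, 601 and 1002 in knockout libraries 1, 4 and 5. Those last 3 averaged 795 ± 201 (SD, n = 3), 55.8% of the wild type mean, and lay below both wild type libraries. The difference was -0.32 over all knockout libraries (SE 0.48, limma adjusted p = 0.804) and -0.84 without libraries 2 and 3 (SE 0.30, adjusted p = 0.820).

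Col4a1 and Col4a2 are neighbours on chromosome 8 and are transcribed in opposite directions, Col4a1 on the minus and Col4a2 on the plus strand. In RefSeq (GRCm38.p6) their starts are 21 bases apart, at 11312826 and 11312805, and the windows of 300 bases around them share 78 bases.

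The other type IV chains form trimers of specialised basement membranes such as those of kidney, eye and muscle. Col4a5, on the X chromosome, had 91.3 and 138 in wild type libraries, 477 and 502 in the high pair, against 75.4, 96.2 and 56.1 in knockout libraries 1, 4 and 5 (difference 0.48, SE 0.77, limma adjusted p = 0.817). Libraries 2 and 3 were 4.16 and 4.38 times the wild type mean with this probe set, and 2.29 and 1.97 times with the second one. Its X-linked neighbour Col4a6 did not share the pattern, with 105 and 108 in wild type and 81.7 to 143 in knockout libraries. Col4a3 was highest in knockout library 4 (246) and lay between 60.2 and 146 in the other 6 libraries, and all 3 Col4a4 probe sets were under the filter.

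Col18a1 encodes the type XVIII chain, a basement membrane collagen of the multiplexin class that carries heparan sulfate and from whose end endostatin is released. It had 6483 and 5556 in wild type libraries, 15404 and 15676 in the high pair, against 6168, 6415 and 5585 in knockout libraries 1, 4 and 5. The last 3 averaged 6056 ± 426 (SD, n = 3) against 6019 ± 655 (SD, n = 2) in wild type libraries, and the high pair was 2.56 and 2.60 times the wild type mean. Over all knockout libraries the difference was 0.55 (SE 0.45, limma adjusted p = 0.653), and without libraries 2 and 3 it was 0.01 (adjusted p = 0.993). The second probe set gave 12254 and 12533 in libraries 2 and 3 and 2480.1 to 4049 in the other 5 (0.72, SE 0.67, adjusted p = 0.690).

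RefSeq lists 2 starts for Col18a1, and the deposited table does not tell transcripts from them apart. The 250 bases before each are shown since they differ in composition (GRCm38.p6, minus strand, chr10:77166531-77166780 for the upstream and chr10:77113706-77113955 for the downstream start), marked as for Col1a2; CCGCCC and ATTGG are the GC and CCAAT boxes read from the opposite strand.
Col18a1, upstream start: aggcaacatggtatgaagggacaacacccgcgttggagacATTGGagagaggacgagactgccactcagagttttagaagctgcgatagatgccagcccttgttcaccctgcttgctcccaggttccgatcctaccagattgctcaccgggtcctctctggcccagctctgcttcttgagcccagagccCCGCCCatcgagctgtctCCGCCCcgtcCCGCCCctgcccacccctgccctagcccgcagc
Col18a1, downstream start: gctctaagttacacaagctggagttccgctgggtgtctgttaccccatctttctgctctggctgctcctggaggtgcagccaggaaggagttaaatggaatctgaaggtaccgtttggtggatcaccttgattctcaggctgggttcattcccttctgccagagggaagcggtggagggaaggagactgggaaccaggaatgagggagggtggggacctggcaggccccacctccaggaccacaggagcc
The upstream stretch holds 3 GC boxes, all within 61 bases of the start, and 1 CCAAT box, and the downstream stretch holds 0 of either.

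Among the transmembrane collagens, which span the plasma membrane and can be shed from it, Col13a1 had the widest range of signals, on the log2 scale, of the tested collagen genes. Its signals were 13.2 and 102 in wild type libraries, only 59.5, 42.1 and 67.3 in knockout libraries 1, 4 and 5, but 836 and 891 in the high pair. The last were 14.5 and 15.4 times the wild type mean, with wild type library 1 far below wild type library 2. The difference was 1.66 (SE 1.14, limma adjusted p = 0.607), and 0.24 without libraries 2 and 3 (adjusted p = 0.941). It was 0.72 without wild type library 1 and 2.60 without wild type library 2. Col13a1 has a single probe set, so no other probe set could be set beside it. Its stretch before the start (chr10:61979109-61979358, minus strand, GRCm38.p6) holds 1 match to the letters TATAAA, in capitals, and no GC or CCAAT box by the letters searched.
Col13a1: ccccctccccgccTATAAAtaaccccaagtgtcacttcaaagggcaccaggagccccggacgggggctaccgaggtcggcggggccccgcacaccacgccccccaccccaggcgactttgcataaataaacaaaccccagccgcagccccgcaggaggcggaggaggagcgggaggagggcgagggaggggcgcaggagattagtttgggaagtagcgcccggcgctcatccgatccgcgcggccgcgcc
This match lies 237 to 232 bases before the RefSeq start, and whether it serves that start as a TATA box was not tested. Col25a1, the other tested transmembrane collagen, did not have this pattern, with 158 and 102 in wild type libraries and 66.0 to 129 in knockout libraries (-0.36, SE 0.29, adjusted p = 0.653).

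Type VI collagen forms beaded filaments next to cells. Col6a1 had 167 and 79.8 in wild type libraries, 249 and 253.5 in the high pair, against 45.9, 50.5 and 113 in knockout libraries 1, 4 and 5. Col6a2, its partner in the same trimer, had 376 and 300.2 in wild type libraries, 417 and 466 in libraries 2 and 3, and 305 to 360.4 in the other 3 (0.12, SE 0.27, limma adjusted p = 0.873). The second Col6a2 probe set gave the lowest adjusted p of all collagen probe sets (difference 1.05, limma adjusted p = 0.575). Wild type library 2 stood apart there, at 42.9 against 367 in wild type library 1 and 256 to 382 in the knockout libraries. Col6a3 lay at 214 and 145 in wild type libraries and 130.3 to 165 in knockout libraries.

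The FACIT collagens, which attach to the surface of fibres, and the anchoring fibril gene Col7a1 are given together. Libraries 2 and 3 were both the highest at 1 of 6 tested FACIT probe sets, Col16a1 (172.5 and 305 against 85 to 165 in the other 5). By class, that count was 9 of 14 for fibrillar, 5 of 7 for type IV, 2 of 4 for type VI, 1 of 2 for transmembrane and 2 of 2 for Col18a1 probe sets, beside 26.9% of all tested probe sets; differences between classes were not tested. Col20a1 had 52.5 and 66.0 in wild type and 55.8 to 104.5 in knockout libraries (0.26, SE 0.28, limma adjusted p = 0.730). Signals of Col9a1, Col12a1, Col14a1 and Col22a1 lay between 60.2 and 264, and Col7a1 had 194 and 172 in wild type and 165.5 to 277 in knockout libraries.

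Where a gene had 2 tested probe sets, they could be set against each other. Of 8 such genes, 5 (Col18a1, Col1a2, Col27a1, Col4a1 and Col4a5) had libraries 2 and 3 highest with both probe sets and 3 (Col1a1, Col5a1 and Col6a2) with 1 of them. Singly, 26.9% of all tested probe sets had these libraries highest. The share of all genes with both of 2 probe sets so was not counted, so the 8 genes cannot be set against it.

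The remaining 46 collagen probe sets were under the filter, with signals of 0.30 to 241 and a median of 18.4. They include every probe set of 14 genes: Col4a4, Col6a4, Col6a5, Col8a1, Col8a2, Col9a2, Col9a3, Col10a1, Col15a1, Col17a1, Col19a1, Col23a1, Col24a1 and Col26a1. The table holds no detection calls, so it cannot be said which of these were above background. The filter fell between Col11a2 (mean log2 value of 6.45, tested) and Col6a4 (6.40, not tested). Of the 14 genes, 2 are singled out after their values were seen. Col8a1, a network-forming chain of vessel walls and cornea, reached 241 and 190.4 in knockout libraries 2 and 3 with its second probe set, against 49.1 and 48.0 in wild type and 12.7 to 15.0 in the other knockout libraries. With its brightest probe set libraries 2 and 3 were also highest (133 and 101). There knockout library 5 (65.7) was above both wild type libraries (53.3 and 64.8). The dimmest Col8a1 probe set did not set libraries 2 and 3 apart (6.6 and 24.3, against 5.4 to 21). Col23a1, with its brightest probe set, had 143 and 88.6 in wild type libraries, 76.2 and 100 in libraries 2 and 3, and 16.1 to 16.3 in knockout libraries 1, 4 and 5. Its second probe set did not repeat the low values. It had 7 and 55.8 in wild type libraries and 18.3, 34.1 and 7.4 in knockout libraries 1, 4 and 5.

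The enzymes that modify collagen chains in the endoplasmic reticulum were divided by library as well. Of 15 listed genes for hydroxylation, glycosylation and the prolyl 3-hydroxylase complex, 13 were tested and 0 were called in any of the 3 fits, with 9 differences above 0 and 4 below. Without knockout libraries 2 and 3 this turned to 1 above and 12 below. Over all tested probe sets 55.9% of differences were above 0, and 53.7% without these 2 libraries. Calls over all were 0.0185% to 0.037% in the 3 fits. These shares also stand beside the counts of every list that follows. Libraries 2 and 3 were highest at 10 of 13, against 26.9% of all tested probe sets, and knockout libraries 1, 4 and 5 were all below both wild type libraries at 8 of 13, against 8.89%. The 3 brightest members are given. P4hb, a disulfide isomerase that is also the shared subunit of prolyl 4-hydroxylase, had 14642 and 10157 in wild type libraries, 13306 and 13205 in libraries 2 and 3, and 8659 to 9180.5 in the others. Ppib, a prolyl isomerase, had 8202 and 5431 in wild type libraries, 13902.5 and 13479 in libraries 2 and 3, and 5547 to 6612 in the others. Crtap, a partner of prolyl 3-hydroxylase, had 2833 and 3449, then 6998 and 6284, then 2474 to 2867, in the same order. P4hb was thus not highest in libraries 2 and 3, while Ppib and Crtap were.

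In the list of folding and secretion genes, 13 were tested, 0 were called, 8 differences were above 0 and 5 below (5 and 8 without libraries 2 and 3), and libraries 2 and 3 were highest at 7, against 26.9% of all tested probe sets. Fkbp9, a prolyl isomerase, had 14613 and 14597.5 in libraries 2 and 3 and 3487 to 6232 in the other 5. Tmem131, which binds procollagen for export, had 9386 and 10705 against 3894 to 5021. Sec13, a subunit of the secretory coat, was lowest in these 2 libraries, at 1523 and 1469.9 against 2511 to 4093. Serpinh1, which encodes the collagen chaperone HSP47 and is added here after its values were seen, had 1348 and 837 in wild type libraries, 5694 and 5445.5 in libraries 2 and 3, and 539, 835 and 816 in the other 3 (difference 0.61, limma adjusted p = 0.805).

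Of 9 tested processing and cross-linking genes, 8 had a difference above 0 (2 without libraries 2 and 3), 0 were called, and 7 were highest in libraries 2 and 3, against 26.9% of all tested probe sets. Pcolce, which enhances procollagen trimming, had 7197 and 7244 in libraries 2 and 3 and 2027 to 3274 in the other 5. Pxdn, a peroxidase that cross-links type IV collagen, had 2480.3 and 2401 there and 716 to 1698 elsewhere. Among 6 receptors, 5 differences were above 0 (4 without libraries 2 and 3) and 0 were called. Only 2 of the 6 were highest in libraries 2 and 3, near the 26.9% of all tested probe sets. Of these, Itgb1, the integrin beta 1 chain, had 7029 and 7604 there against 1094 to 3485 elsewhere. Ddr1, a collagen-binding kinase, had 3058 and 3463 against 880.3 to 2068. Of 10 proteases and inhibitors, 6 differences were above 0, but 0 without libraries 2 and 3. In that comparison all 10 were below (median -0.46), beside 46.3% of all tested probe sets. Calls numbered 0, and 7 of 10 were highest in libraries 2 and 3, against 26.9% of all tested probe sets. Among them Ctsl, a lysosomal cathepsin, had 12899 and 13407 there against 5021 to 7275 elsewhere.

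**Figure D4:**
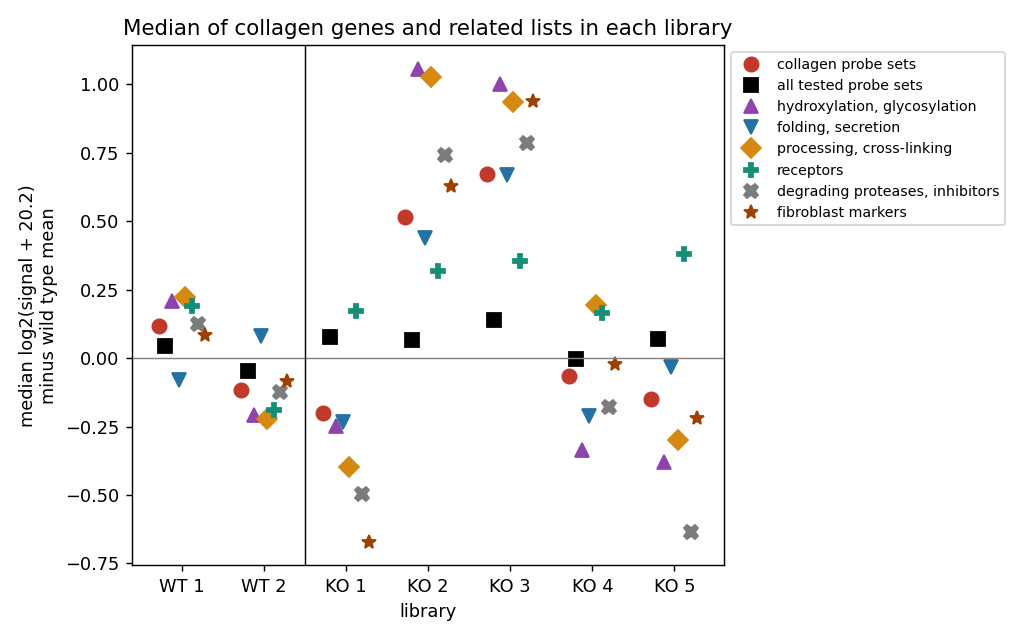
Median of log2(signal + 20.2) minus the wild type mean in each library, for the tested collagen probe sets, all tested probe sets and 6 related gene lists (1 brightest probe set per gene). The collagen median is 0.52 and 0.67 in knockout libraries 2 and 3 and -0.20 to -0.06 in the other 3, and the hydroxylation and glycosylation list is at 1.06 and 1.0 in the same 2 libraries and -0.38 to -0.25 in the others.

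Markers of other cell types that make collagen are given beside these values. For 16 listed fibroblast markers, 12 tested, the summed signal was 5671 and 5062 in wild type libraries, 8200.1 and 7544 in knockout libraries 2 and 3, and 3611 to 4665 in knockout libraries 1, 4 and 5; libraries 2 and 3 were highest at 6 of 12, against 26.9% of all tested probe sets, and the list median there was 0.63 and 0.94. Ccn2, the brightest, had 4271 and 3656 in wild type libraries, 4544 and 4083 in libraries 2 and 3, and 2206 to 3473 in the others. Thy1 had 405 and 217 in wild type libraries and 310.1 and 292 in libraries 2 and 3. Loxl1, which is also on the cross-linking list, had 472 and 520.2 in libraries 2 and 3 against 163 to 212 elsewhere. Dcn, S100a4, Postn and Twist2, dimmer members, are added here after their values were seen. In libraries 2 and 3 Dcn had 552.4 and 555.1 against 13.4 to 55.6 elsewhere, and S100a4 had 841.3 and 725 against 20.5 to 75.4. Postn was also highest there, at 7.52 and 7.57 times the wild type mean. Twist2 was lowest there, at 60.5 and 66.6 against 95.8 to 210.8. Fap, Lum and Twist1 were under the filter. The part of such cells in the collagen signals was not tested, and in a bulk sample fewer cells of a type and less RNA per cell cannot be told apart.

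Markers of primitive and parietal endoderm, the embryonic cells best known for type IV collagen, gave 5 of 14 tested members highest in libraries 2 and 3, near the 26.9% of all tested probe sets. Of the 14 differences 9 were below 0, and the list median was -0.07 and -0.23 in these 2 libraries. Sparc, a collagen-binding protein and the brightest of them, had 7035 and 6317 in wild type libraries and 6174 and 5366 in libraries 2 and 3, with 4136.5 to 4580.2 in the others. The laminin chain Lamb1 had 5537 and 5251.5 in libraries 2 and 3 against 1761 to 2933 elsewhere, and Lamc1 had 3428 and 4498 against 1413 to 2761. Gata4, Gata6, Sox17, Sox7, Foxa2 and Dab2, added here after their values were seen, all had a difference below 0. Sox17 had 194.9 and 283.2 in wild type libraries and 103.4 and 70.7 in libraries 2 and 3. Dab2 was lowest in libraries 2 and 3, at 356.5 and 309 against 559.8 to 1150.2 elsewhere. Summed signals were 13268 and 15796 in wild type libraries, 20174 and 20238 in libraries 2 and 3, and 10551 to 12309 in the other 3, an order that the list medians do not share. Endothelial markers were highest in libraries 2 and 3 at 3 of 8, chondrocyte markers at 2 of 6, epithelial markers at 3 of 7 and pluripotent markers at 2 of 10, beside 26.9% of all tested probe sets. The 3 epithelial members include Epcam and Cdh1, which were bright in wild type libraries too (7290 and 6944, and 11440 and 11241). The endothelial median was -0.26 and -0.14 in knockout libraries 2 and 3, but the summed endothelial signal was 5176 and 5336 there against 1966 to 3166 in the other 5. The 3 brightest endothelial members were all highest there. Egfl7 had 1674 and 1505 against 489 to 793, Pecam1 had 2070 and 2377 against 264 to 891, and Tek had 671 and 621 against 241 to 423. The other 5 tested members (Cdh5, Kdr, Cldn5, Esam and Flt1) all had a difference below 0. Kdr, added here after its values were seen, had 377.7 and 280.2 in wild type libraries and 180.8 and 167.3 in libraries 2 and 3. Whether these markers and the collagens come from the same cells was not tested.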

How the data were processed

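RNA of 7 libraries was measured on 1-colour arrays, and the authors deposited 1 table holding a linear intensity for each probe set. Per the submitters' processing notes MAS5 was used, with no version named. The trimmed mean of every array, leaving out 2% at each end, was 500.0, so the values were taken as already scaled, and 64 control probe sets were left out. The table holds no detection calls and no scan dates. Depth has no counterpart on arrays, and the number of libraries limits the precision.

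A pseudocount of 20.2, the 20th percentile of all signals, was added before log2. The 27022 probe sets whose mean over all arrays passed the 40th percentile were fitted with limma 3.58.1 in R 4.3.3 (lmFit, eBayes with a variance trend), knockout against wild type, two-sided, with Benjamini-Hochberg adjustment over all of them; the script was first tested on simulated data. Genes were named from GEO's platform annotation, which gave 34945 probe sets 1 symbol, 932 several and 9160 none; all 82 collagen probe sets matched RefSeq. A gene is represented by its brightest probe set, tested collagen genes are given per library and those under the filter by range, and of each list up to 3 of the brightest members are named; a gene outside this rule is said to be chosen after its values were seen. Differences followed through the alternatives are those of the 10 genes with the largest difference and the 10 with the highest mean signal (16 genes), plus the second probe sets of Col1a1 and Col18a1. The collagen genes and the gene lists were chosen with earlier results of these data known. Replicate numbers 1 and 2 occur in both groups; same-numbered libraries had correlations of deviations of 0.109 and -0.0098, and the labels name no shared batch, so the numbers were not taken as pairs.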

Additional observations from a re-analysis of the deposited data

Results flagged for a closer look

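In 2 of the 36 tested collagen probe sets, 1 knockout library lay far from the other 4 by the Dixon gap test, which chance alone passes in about 1 in 20 groups. Col27a1 had a signal of 58.4 in knockout library 4, where the other knockout libraries had 382 to 686, and the second probe set of the gene did not repeat this. Col9a1 had a signal of 130.0 in knockout library 1 and 229.7 to 248 in the other knockout libraries.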

How the results depend on the processing

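The count of collagen calls was 0 under each alternative run. The median collagen difference of 0.04 moved by less than its SD over the 5 knockout libraries (0.41), which includes the split of libraries 2 and 3 (0.07 over libraries 1, 4 and 5). It fell below 0 with array weights (-0.07), centring (-0.07) and quantile normalization (-0.03). The same held without knockout library 3 (-0.02) or wild type library 2 (-0.02). Over all tested probe sets, centring and quantile normalization gave -0.05 and -0.03. Without knockout libraries 2 and 3, the collagen median of -0.21 became -0.14 with no filter and -0.30 with quantile normalization, and lay between -0.34 and -0.12 as single libraries were left out. With no filter, chosen for these counts after seeing the data, 56 of 82 collagen probe sets were lower in that comparison, beside 48.8% of all probe sets. Of the 82, 9 had knockout libraries 1, 4 and 5 all below wild type, which is near the 9.58% of all probe sets. The 8 calls over all probe sets became 2 with 1 probe set per gene, 4 with a filter at the 60th percentile, 5 with no filter, 5 without knockout libraries 2 and 3, and 0 to 7 with 1 library left out. Calr gave -3.78 to -3.52 with 1 library left out, and lost its call without either wild type library.

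With the replicate number as a block, 15 probe sets were called over all, 0 of them collagens, and the Col4a1 difference was 0.048. Since the numbers do not pair the libraries, this is given for completeness.

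Without knockout libraries 2 and 3, or with a term for them, 5 of 18 followed collagen differences changed sign: Col1a2 to -0.67, Col27a1 to -0.37, Col4a5 to -0.49, Col6a2 to -0.046 and the second Col18a1 probe set to -0.10. Array weights gave -0.14 for Col1a2 and -0.072 for Col4a5. Quantile normalization gave 0.037 for Col4a1 and -0.037 for Col6a2. With 1 library left out, the differences ranged from -0.063 to 0.73 for Col27a1, -0.31 to 0.22 for Col2a1, -0.56 to 0.48 for Col4a1, -0.21 to 0.069 for Col5a1, -0.60 to 0.26 for Col5a2 and -0.033 to 0.27 for Col6a2. They kept their sign but moved by over 1.5 times for Col13a1 (0.72 to 2.60), Col3a1 (-0.93 to -0.10), Col25a1 (-0.64 to -0.09), Col1a2 (0.03 to 0.81), Col4a2 (-0.55 to -0.10), Col4a5 (0.11 to 0.80), Col11a1 (0.21 to 0.55), Col18a1 (0.35 to 0.72; second probe set 0.37 to 1.07), Col20a1 (0.14 to 0.39) and Col5a3 (0.22 to 0.48). The cause of these changes was not tested beyond the libraries left out. A lone wild type library was assumed to vary like the knockout group.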
